A study of Arabidopsis thaliana with 6 samples.

Results

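The genes described here are 7 members of the TRICHOME BIREFRINGENCE-LIKE (TBL) family of Arabidopsis thaliana, namely TBL15, TBL16, TBL18, TBL20, TBL36, TBL45 and AT2G31110, which the RefSeq gene table also lists as TBL40. They were chosen by name as family genes outside the clades that acetylate xylan and mannan, with TBL45 as the relative of PMR5. Each gene was read from the probe set paired with that gene alone, and AT2G31110, which had more than one, from the brighter one. The 7 are among 24 family genes with such a probe set, of 13356 genes in all. Of the other 17 family genes, 8 were of the xylan and mannan clades and 9 were of neither group. All 7 had a probe set, and 6 of them were above the table's lowest value on every array, the exception being TBL20.

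Rosettes of untreated plants were collected at 3 weeks after growth at 22 °C in a 14 h photoperiod, and their RNA was hybridised to 1-colour Affymetrix arrays. There were 3 arrays of Col-0, the wild type, and 3 of the mutant pmr5 in the Col-0 background. The labels name no allele of pmr5, no promoter or transgene, and no pooling of plants. The titles call the arrays of a genotype biological replicates without saying whether they came from separate sowings, so the p-values below measure the spread between these samples, which may be partly technical. The annotation pairs no probe set with PMR5 alone, and the mutated gene was not analysed here.

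TBL proteins are known as enzymes of the secretory pathway that add acetyl groups to cell wall polysaccharides, and the family takes its name from a mutant whose trichomes lost the birefringence that crystalline cellulose gives. Different members act on xylan, mannan, xyloglucan or pectin. PMR5 is the family member whose loss makes leaves resistant to powdery mildew, and it is known for a part in the acetylation of pectin. A substrate is not given below for the 7 genes, since none was taken as established.

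Deposited values were log2 signals, so a difference of 1 is 2-fold. On each array between 25.0% and 26.3% of the probe sets were listed at one shared lowest value of 2.19, where values have no order. Across probe sets the arrays correlated at 0.980 to 0.995. On the first principal component, which held 37.5% of the variance, Col-0 replicate 1 scored 52.3. The other 5 arrays lay between -30.5 and 12.2, so Col-0 replicate 1 stood apart from its group on this component. The array weights of limma are lower for arrays that deviate more from their group. They were lowest for pmr5 replicate 2, at 0.36, then 0.53 for Col-0 replicate 1 and 0.66 for Col-0 replicate 3. The remaining arrays had weights from 1.43 to 2.47. The tissue label was set against 8 leaf markers, of which 3 were measured. The antenna genes LHCB4.1 and LHCB4.2 and the Rubisco activase gene RCA had mean log2 signals between 14.5 and 15.2. Of 3 measured root markers, the root hair genes EXPA7 and EXPA18 never exceeded the lowest value, while PYK10 did so throughout.

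The order of the 7 signals ran from TBL45, the brightest, through TBL18, AT2G31110, TBL16, TBL15 and TBL36 to TBL20. The mean log2 signal of TBL45 over the 6 arrays was 8.66, above that of 86.8% of the 22746 probe sets tested. TBL18 at 6.54 and AT2G31110 at 6.49 were above 66.5% and 66.0% of them. These 2 neighbours did not differ beyond their spread, with a gap of 0.04 between means and residual SDs of 0.10 and 0.11, and TBL18 was the brighter on 5 of 6 arrays. TBL16 followed at 4.29, above 46.9% of probe sets, and its values did not overlap with those of the genes on either side of it. TBL15 at 2.64 and TBL36 at 2.55 did overlap, and TBL15 was the brighter on 2 of 6 arrays. TBL20 at 2.20 was at the lowest value on 5 of 6 arrays. Signals of different probe sets also depend on how well their probes bind, so this is an order of signals and not of transcript numbers.

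TBL45, the relative of PMR5, had log2 signals of 9.68, 8.61 and 8.46 on the Col-0 arrays and 8.65, 8.47 and 8.10 on the pmr5 arrays, each in the order of the replicate numbers. Col-0 replicate 1 was high and the other 2 Col-0 arrays lay within the range of pmr5, so the genotypes overlapped. In signal rank, with 1 as the brightest probe set of an array, TBL45 stood at 1779 on Col-0 replicate 1 and between 3001 and 3991 on the other 5 arrays. The mean of the Col-0 arrays was 8.92 ± 0.66 and that of the pmr5 arrays 8.41 ± 0.28 (SD, n = 3). The difference, pmr5 minus Col-0, was -0.51 log2 units (SE 0.40), with a 95% interval from -1.57 to 0.55, in limma (adjusted p = 1). That is 1.42-fold lower on average, within the spread of the replicates. Without Col-0 replicate 1 the difference was -0.13 (SE 0.20).

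TBL15 had its highest signal on the same array. It read 3.86, 2.50 and 2.58 on the Col-0 arrays and 2.19, 2.52 and 2.20 on the pmr5 arrays, in the order of the replicate numbers. All arrays except Col-0 replicate 1 were within 0.39 log2 units of each other and close to the lowest value, and the genotypes overlapped by 0.02. The difference was -0.67 (SE 0.43), with a 95% interval from -1.83 to 0.48, in limma (adjusted p = 1), and it was -0.23 (SE 0.13) without Col-0 replicate 1. That array exceeded the next highest by 1.28 log2 units in TBL15 and by 1.03 in TBL45. Gaps as large were found in 0.163% and 0.334% of all probe sets. The replicate spread of both genes was wide, with residual SDs of 0.55 and 0.51 against a median of 0.23 over the 16186 probe sets that exceeded the lowest value throughout. No other of the 7 genes had such a gap, and in AT2G31110 and TBL16 Col-0 replicate 1 was not the highest array.

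**Figure D1:**
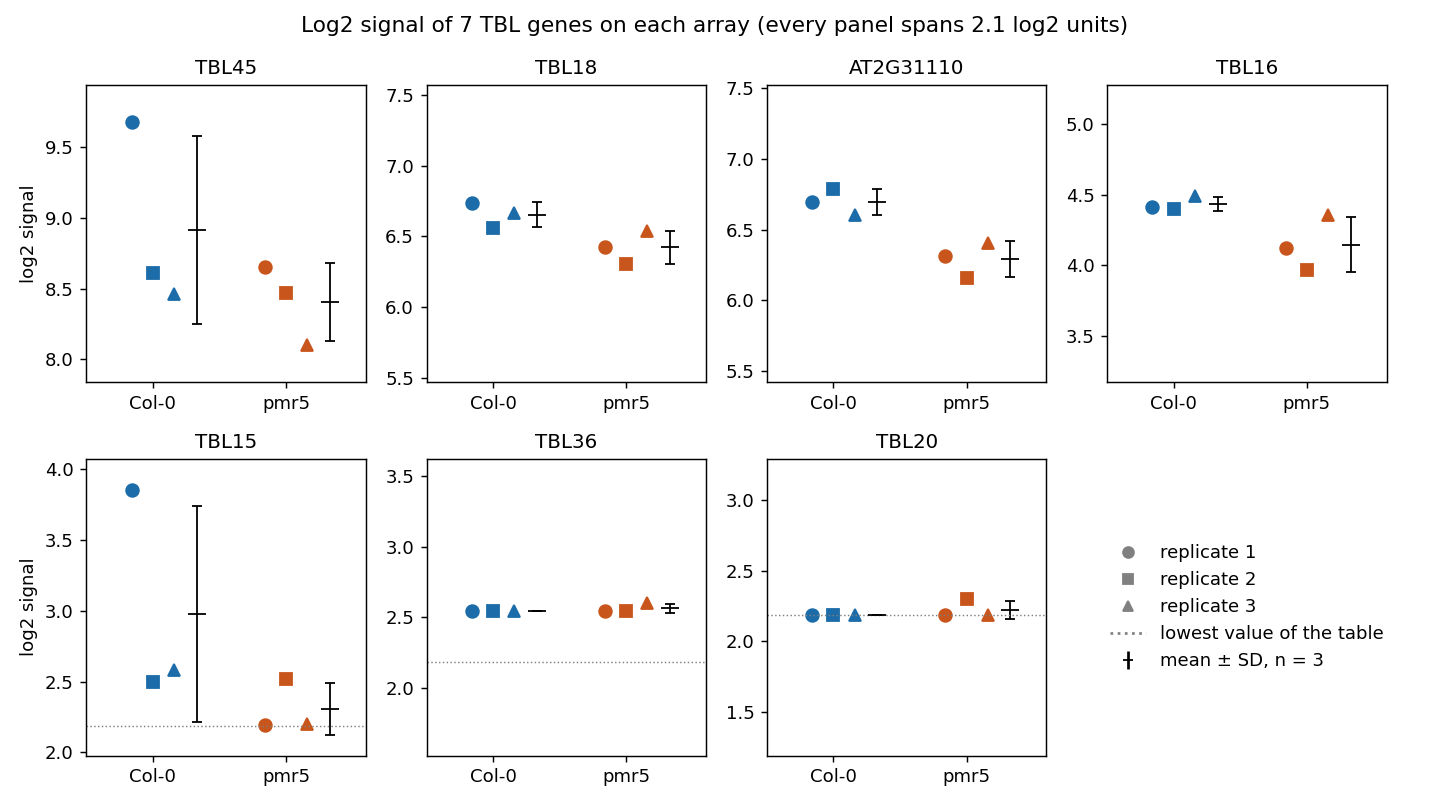
Log2 signal (y axis) of the 7 TBL genes on the 3 Col-0 and 3 pmr5 arrays, with point shapes for the replicate numbers and bars for the mean ± SD (n = 3). TBL45 and TBL15 have 1 high Col-0 array, TBL18, AT2G31110 and TBL16 have all pmr5 points below all Col-0 points, and TBL36 and TBL20 lie at or near the bottom of the scale.

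The genotypes separated in AT2G31110, TBL18 and TBL16, each of them lower on every pmr5 array than on any Col-0 array. AT2G31110 read 6.69, 6.79 and 6.61 in Col-0 and 6.32, 6.16 and 6.40 in pmr5. The lowest Col-0 array and the highest pmr5 array were 0.20 log2 units apart. Its means were 6.70 ± 0.09 and 6.29 ± 0.12 (SD, n = 3), a difference of -0.40 (SE 0.08), or 24.4% lower in pmr5, with a 95% interval from -0.63 to -0.18. Its unadjusted p in limma was 0.00709, and the adjusted p over all probe sets was 1. Its rank ran from 6967 to 7449 on the Col-0 arrays and from 7958 to 8569 on the pmr5 arrays. With array weights its difference was -0.39 (SE 0.07), with an unadjusted p of 0.00357 in limma.

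TBL18 read 6.74, 6.56 and 6.66 in Col-0 and 6.43, 6.30 and 6.54 in pmr5. The genotypes were separated by 0.03 log2 units, less than the SD of either group (0.09 in Col-0, 0.12 in pmr5). Its difference was -0.23 (SE 0.08), or 14.8% lower, with a 95% interval from -0.45 to -0.02, an unadjusted p of 0.0396 and an adjusted p of 1 in limma. With array weights the difference of TBL18 shrank to -0.13 (SE 0.07), with an unadjusted p of 0.120 in limma.

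TBL16 read 4.41, 4.40 and 4.49 in Col-0 and 4.12, 3.96 and 4.35 in pmr5. The gap between the groups was 0.05 log2 units, and the spread was wider in pmr5 (SD 0.20) than in Col-0 (SD 0.05, n = 3 each). Its difference was -0.29 (SE 0.11), or 18.0% lower, with a 95% interval from -0.58 to 0.01, an unadjusted p of 0.0552 and an adjusted p of 1 in limma. With array weights the difference of TBL16 shrank to -0.18 (SE 0.10), with an unadjusted p of 0.129 in limma.

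These 3 genes shared one order within pmr5, replicate 3 the highest, replicate 1 between and replicate 2 the lowest. Against the mean of the 3 Col-0 arrays, pmr5 replicate 2 was at -0.54 in AT2G31110, -0.35 in TBL18 and -0.47 in TBL16. The same values for pmr5 replicate 3 were -0.29, -0.12 and -0.08. The control probe sets for actin, GAPDH and ubiquitin allow a 3' minus 5' difference, a sign of RNA integrity. It had the opposite order within pmr5, at 0.84 on replicate 3, 0.95 on replicate 1 and 1.11 on replicate 2. Its mean was 0.98 ± 0.11 for the Col-0 arrays and 0.97 ± 0.13 for those of pmr5 (SD, n = 3, 2-sided exact permutation p = 1, the smallest possible being 0.1). The replicate SDs of the 3 genes, 0.10 for TBL18, 0.11 for AT2G31110 and 0.14 for TBL16, were below the median of the probe sets.

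**Figure D2:**
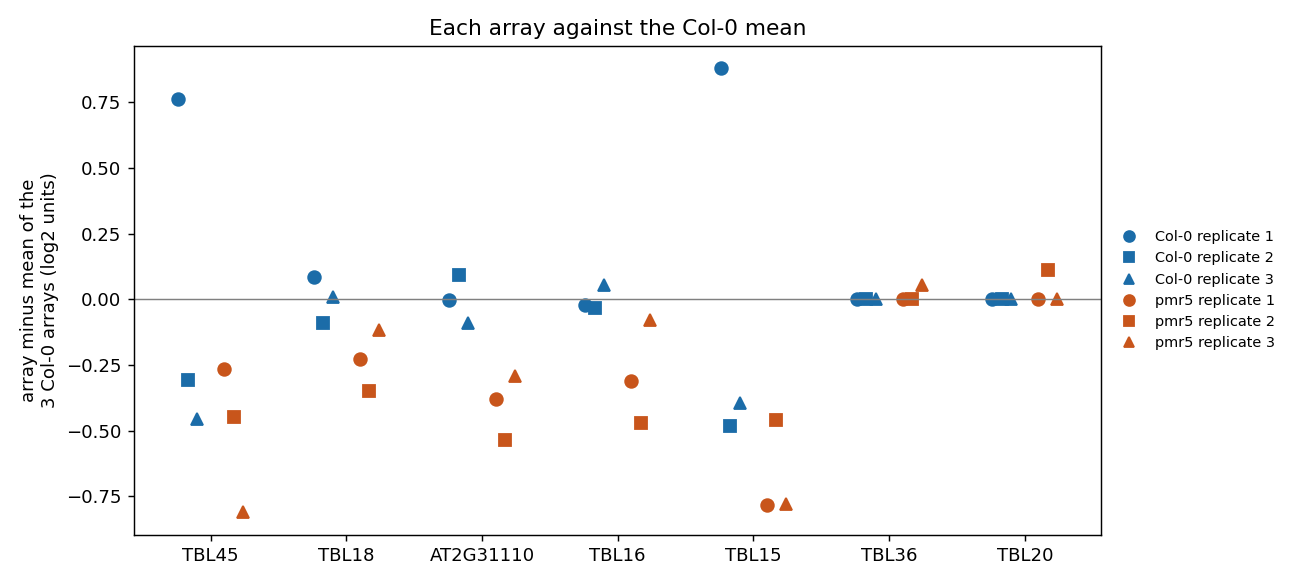
Log2 signal of each array minus the mean of the 3 Col-0 arrays (y axis), for the 7 TBL genes in order of mean signal. In AT2G31110, TBL18 and TBL16 the pmr5 arrays lie from 0.08 to 0.54 below the Col-0 mean with replicate 2 the lowest, while in TBL45 and TBL15 Col-0 replicate 1 lies 0.76 and 0.88 above it.

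Set against all probe sets, 3 of the 7 genes, or 42.9%, were lower in pmr5 with no overlap, and 0 were higher with no overlap. The share of all 22746 probe sets was 2.25% for lower with no overlap and 2.41% for higher, together 4.66%. Among the 16186 that exceeded the lowest value throughout, these shares were 3.09% and 3.35%. At an unadjusted p under 0.05 in limma, 2 of the 7 were lower, AT2G31110 and TBL18, against 1.23% of all probe sets. That count was 1, AT2G31110, when Col-0 replicate 1, Col-0 replicate 3, pmr5 replicate 1 or pmr5 replicate 2 was left out. The shares of all probe sets were then 1.33%, 2.31%, 0.998% and 3.82%, in that order. The count was 3, with TBL16 added, in the absence of pmr5 replicate 3, against 0.853% of all probe sets. At an adjusted p under 0.05, 0 of the 7 passed, and 0% of all probe sets did. The list was drawn up with results of these arrays known, so its count is a description. Leaving out an array cannot bring overlap to genes that had none, so these 3 stay apart whichever array is dropped. Leaving out Col-0 replicate 1 gave 3 genes with no overlap, the same 3, where 9.92% of all probe sets had none in either direction. The count was 4, with TBL15 added, when replicate 2 of either genotype was left out, but overlap was then also rarer over all probe sets, with none in 8.92% of them for the Col-0 array and in 20.2% for the pmr5 array.

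Other measures separated the same arrays. The poly-A spike controls, added during labelling, averaged 6.68 ± 0.13 on the Col-0 arrays and 6.31 ± 0.24 on those of pmr5 (SD, n = 3), and the genotypes did not overlap (2-sided exact permutation p = 0.1, the smallest possible). Within pmr5 they ran from 6.04 on replicate 3 to 6.52 on replicate 2, the reverse of the order in the 3 TBL genes. Within Col-0 they were 6.62, 6.59 and 6.83, in the order of the replicate numbers. That order was reversed in AT2G31110 and the same in TBL16, and TBL18 had neither. Between the genotypes the spikes and the 3 TBL genes were both lower in pmr5. Of 6 guard cell markers 2 were measured, AT1G22690 and the transcription factor gene FMA, and neither was at the lowest value. Their signals, summed before the log, came to 10.1 to 10.4 on the log2 scale in Col-0 and 10.7 to 10.9 in pmr5, with no overlap. That sum is almost wholly AT1G22690, whose mean log2 signal was 10.48 against 5.58 for FMA. The differences were 0.58 (SE 0.11) for AT1G22690 and 0.16 (SE 0.06) for FMA. Of 4 trichome markers only TRY was measured, and its genotypes overlapped. The part of the spikes, of RNA integrity and of cell type makeup in the TBL differences was not tested. In whole rosettes, fewer cells of a type and less RNA per cell cannot be told apart.

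The second probe set of AT2G31110 did not show the difference of the first. It was dimmer by 2.41 log2 units, with signals of 3.99, 4.16 and 4.09 in Col-0 and 4.09 on all 3 pmr5 arrays. The genotypes overlapped, and the difference was 0.0066 (SE 0.046), with a 95% interval from -0.12 to 0.13, in limma (adjusted p = 1). That interval does not reach the -0.40 of the brighter probe set. The dimmer probe set had 4 distinct values over the 6 arrays. It barely varied in pmr5, with an SD of 0.0015, but its SD in Col-0 was 0.084, near the 0.091 of the brighter probe set. Its mean log2 signal of 4.08 was above that of 45.6% of probe sets. Whether it is able to show a difference was not tested, so its narrow interval does not settle which reading holds. Which part of the transcript each probe set reads was not given in the sources used here.

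TBL36 and TBL20 gave almost no variation to compare. TBL36 was listed at 2.54 on 5 arrays, identical to 6 decimals, and at 2.60 on pmr5 replicate 3. TBL20 was at the lowest value of 2.19 on 5 arrays and at 2.30 on pmr5 replicate 2. In each gene 1 pmr5 array set the difference, which was 0.02 (SE 0.02) for TBL36 and 0.04 (SE 0.04) for TBL20 in limma (adjusted p = 1 for both). A transcript level below what the array reads cannot show a difference here.

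**Figure D3:**
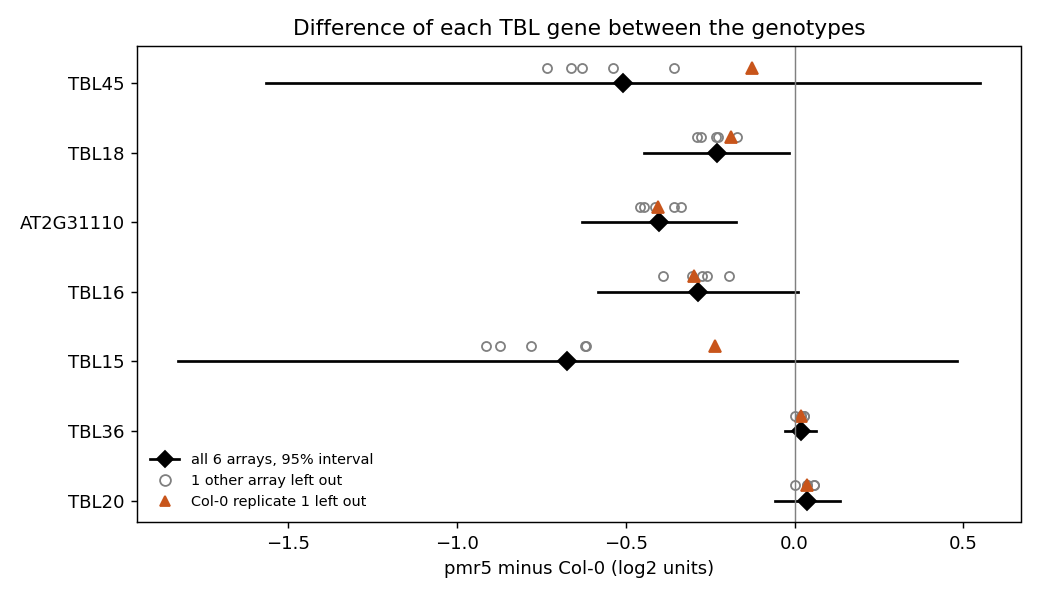
Difference between genotypes (pmr5 minus Col-0, log2 units, x axis) for the 7 TBL genes, with the 95% interval of the limma fit as a line and the values with 1 array left out above it. Without Col-0 replicate 1 TBL45 moves from -0.51 to -0.13 and TBL15 from -0.67 to -0.23, while AT2G31110 stays at -0.40.

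Over the whole measured TBL family of 24 genes, 14 had a lower mean in pmr5, 6 a higher one and 4 had identical values on all arrays, with 0 past the adjusted p in either direction. The median difference was -0.29 for the 7 genes described here, -0.08 for the other 17, -0.15 for the family as a whole and 0 over all probe sets tested, of which 41.4% had a lower mean in pmr5. All 4 genes with identical values were among the other 17 and draw that median towards 0. Among genes that varied and exceeded the lowest value on every array, the median was -0.34 for 6 of the 7. It was -0.16 for 13 of the other 17. Leaving out Col-0 replicate 1 brought the median of the 7 genes to -0.19, that of the other 17 to -0.0043 and that of the family to -0.03. The family median moved to -0.09 on leaving out pmr5 replicate 1. Array weights gave -0.18 for the 7 genes, -0.03 for the other 17 and -0.08 for the family, and leaving out pmr5 replicate 1 gave -0.03 for the other 17. Outside the 7 genes no family member separated the genotypes. The 4 with the smallest unadjusted p among these 17 were TBL28 at -0.48 (SE 0.27), TBL34 at -0.15 (SE 0.11), TBL23 at -0.19 (SE 0.16) and TBL32 at -0.36 (SE 0.29). TBL28, TBL34 and TBL32 belong to the xylan clade and TBL23 to the mannan clade. In the 8 xylan and mannan genes the median was -0.19, with 7 lower and 1 higher. Whether the 7 genes differ from these 8 was not tested.

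**Figure D4:**
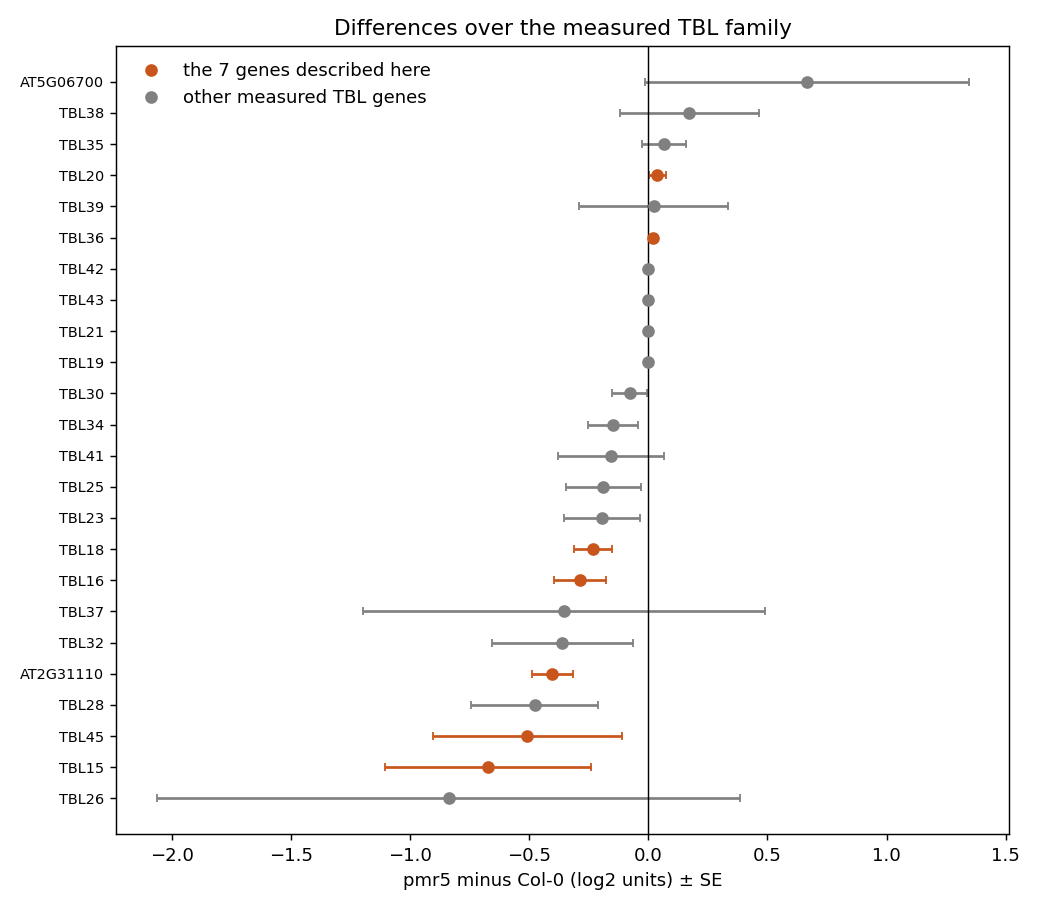
Difference between genotypes (pmr5 minus Col-0, log2 units, x axis) with its SE for the 24 measured TBL family genes, sorted, the 7 described here in orange. The small errors of AT2G31110, TBL18 and TBL16 contrast with those of TBL45 and TBL15, and the 4 genes at 0 had identical values on all arrays.

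Among other genes of wall acetylation, 1 of 5 known to act upstream of the TBL proteins, RWA1 to RWA4 and AXY9, was measured. This was AXY9, with a difference of -0.20 (SE 0.22). Of 12 loci listed as pectin acetylesterases, which remove acetyl groups from pectin, 6 were measured and 0 passed the adjusted p. Their median difference was -0.15, with 3 lower, 2 higher and 1 identical on all arrays. AT1G57590 read 6.63, 6.78 and 6.35 in Col-0 and 4.72, 5.84 and 4.27 in pmr5. The genotypes did not overlap, and its difference was -1.64 (SE 0.46, adjusted p = 1 in limma). AT3G09405 was lower in Col-0 on every array, at 2.97, 3.06 and 3.06 against 3.43, 3.23 and 3.65, a difference of 0.41 (SE 0.12, adjusted p = 1 in limma). AT3G09410 was at 0.30 (SE 0.19) and AT3G05910 at -0.44 (SE 0.31), and both overlapped between genotypes. None of the 3 genes listed for powdery mildew resistance, PMR4, PMR5 and PMR6, was paired alone with a probe set.

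The genes whose signals followed each TBL gene most closely over the 6 arrays were found by Pearson correlation among 8815 or 8814 probe sets with 1 gene above the lowest value. With 6 arrays and so many candidates high values arise readily, and the points share the arrays that set the genotypes apart. For AT2G31110 they were AT3G19340 (r = 0.987) and AT4G29480 (r = 0.972), whose own differences were -0.21 and -0.30. For TBL18 they were AT1G11630 (r = 0.978) and AT3G09180 (r = 0.975), and for TBL16 AT3G57340 (r = 0.988) and AT4G20310 (r = 0.980). These 3 TBL genes had 5, 4 and 6 candidates above 0.95. TBL45 had 78 such candidates, led by AT5G26610 (r = 0.993) and AT4G15810 (r = 0.992), which also read highest on Col-0 replicate 1. TBL15 had 222, led by AT2G16270 (r = 0.997) and AT2G20410 (r = 0.996), again highest on that array. For TBL36, where 1 array alone differed, there were 99, led by AT5G44350 and AT5G35690 (r = 1.00 for both), which likewise differed on that array alone.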

How the data were processed

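The authors deposited a log2 signal for each probe set. Per the submitters' processing notes they used affy and its RMA method; versions and the step that set the shared lowest value are not given in the sources used here. Of 22810 probe sets, 64 controls were left out of the tests. The platform annotation paired 13513 probe sets with 1 gene, and names were matched to RefSeq (TAIR10.1) by gene number, 13436 of them with success. Differences are pmr5 minus Col-0 from limma 3.58.1 in R 4.3.3 (lmFit and eBayes, 2-sided, Benjamini-Hochberg over all 22746 probe sets, threshold 0.05), with no further normalization. The number of arrays limits the precision. The 7 genes and all lists were chosen with earlier results of these data known. Named genes were the 7, the 2 closest by Pearson r to each, and up to 4 per list with the smallest p. The planned protein comparison was not made, for want of sequences. Same-numbered arrays correlated in their deviations at 0.124, -0.276 and 0.198, and differently numbered ones at -0.33 to 0.28. With so few arrays these values cannot show whether the numbers pair them. Steps were tested on simulated data with planted differences larger than those of the 7 genes. That test therefore does not show whether differences of their size would be found. Alternatives were a replicate block, each array left out, other normalizations, filters and variance models, and the second probe set.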

Additional observations from a re-analysis of the deposited data

How the results depend on the processing

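Each difference of the 7 genes was recomputed under 11 to 14 alternatives, and of these 87 values 0 passed an adjusted p under 0.05. TBL15, TBL16, TBL18 and TBL45 were lower in pmr5 in all of theirs, and AT2G31110 in all except its dimmer probe set, at 0.0066. Many of these alternatives could not have changed a direction. The replicate block, the filters and the variance model with an intensity trend leave the difference itself unchanged. In AT2G31110, TBL18 and TBL16, which had no overlap, leaving out an array could not reverse it either. With arrays centred on their medians TBL20 was at -0.0021 and TBL36 at -0.022. With 1 array left out the ranges were -0.92 to -0.23 for TBL15, -0.39 to -0.20 for TBL16, -0.29 to -0.17 for TBL18, 0 to 0.056 for TBL20, 0 to 0.026 for TBL36, -0.74 to -0.13 for TBL45 and -0.46 to -0.34 for AT2G31110. Array weights put TBL16 (-0.18), TBL18 (-0.13) and TBL36 (0.029) outside these ranges and the others inside. TBL20 was at 0 without pmr5 replicate 2 and TBL36 without pmr5 replicate 3, each the one array that differed. Leaving out 1 array cannot create overlap, and the number of the 7 with none was then 3 or 4. The share of all probe sets with no overlap went from 4.66% to between 7.51% and 20.2%. The number was 4 with quantile normalization (5.76% of all) or centring (7.79%). Above the median signal it was 2 (6.99%), where 2 of the 3 genes were tested. At an unadjusted p under 0.05 in limma the count of 2 lower genes was 1 to 3 with 1 array left out. The share of all probe sets that were lower at that p was then 0.853% to 3.82%. The count was 3 with quantile normalization (1.53% of all) or centring (2.13%). It was 1 with array weights (4.04%) or above the median signal (1.43%), where 3 of the 7 genes were tested. The family median ranged from -0.16 to -0.029 with 1 array left out, the latter without Col-0 replicate 1. Over all probe sets the count past the threshold was 0 to 13 with 1 array left out, the highest without pmr5 replicate 2, with 0 of the 7 among them. The replicate block left 0 probe sets past the threshold, and its value for AT2G31110 was -0.40 (SE 0.11). With the block the SE rose for AT2G31110 and for TBL15 (to 0.46). It fell for the other members, to 0.24 for TBL45, 0.050 for TBL18 and 0.079 for TBL16. With the block the unadjusted p of AT2G31110 in limma went from 0.00709 to 0.0534, leaving TBL18 as the only one of the 7 under 0.05.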
